A study of Mus musculus with 14 samples.

Results

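The slow and type IIa sarcomere genes are 10 genes taken by name from the authors' deposited gene table of resting mouse quadriceps, out of 24354 gene symbols in it. They are Myh7 and Myh2 (myosin heavy chains), Myl2 and Myl3 (myosin light chains), Tnnt1, Tnni1 and Tnnc1 (troponin subunits), Tpm3 (tropomyosin), Mybpc1 (myosin-binding protein C) and Myoz2 (a Z-disc protein). All 10 are present once in the table. Expression was measured by RNA-seq in 3 HDAC3 knockout (KO) and 3 HDAC3 wild-type (WT) libraries of quadriceps muscle. All came from male C57BL/6 mice, 4 months old, on normal chow, at rest and without treatment, and were taken at zeitgeber time 10 (10 h after lights on). Of the 14 samples of the series, the other 8 (chromatin, input and nascent RNA libraries) were not used here. The labels do not say how HDAC3 was deleted, in which cells, or whether replicates are separate animals, so the spread between libraries may be technical.

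A muscle fibre builds its sarcomeres from isoforms encoded by separate genes. Slow (type I) fibres use Myh7 with the slow light chains and troponins, oxidative type IIa fibres use Myh2, and the fast IIx and IIb fibres use Myh1 and Myh4. In muscle, HDAC3 is the deacetylase of the NCoR and SMRT corepressor complexes. Mouse quadriceps is known as a predominantly fast muscle with a small oxidative part. In these libraries the members other than Mybpc1 were the minor isoforms of their families. Mybpc1 was not: it averaged 57.3% of its sum with its fast counterpart Mybpc2 in KO and 39.0% in WT. The summed level of the members, most of it Mybpc1, is therefore not that of minor isoforms only.

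Values are FPKM (fragments per kilobase of transcript, scaled to library size), which are per length and can be set side by side between genes. Genes count as called where the authors' deposited table gives a q-value under 0.05. The adjusted p of limma, over 9204 genes, is given beside it. Limma tests the difference of the KO and WT means of log2(FPKM + 1) against the spread between libraries, 6 in all. How far the authors' q-values follow that spread for a single gene is not known from the sources used here. Hdac3 itself was at 5.51, 6.29 and 8.16 FPKM in KO libraries and at 33.3, 31.0 and 23.7 FPKM in WT libraries, a 4.41-fold fall, with q = 0.00119 in the authors' deposited table and an adjusted p of 0.00487 by limma. Depth relative to WT replicate 1, read from the smallest steps of low genes, was 0.660, 0.832 and 0.674 in KO replicates 1, 2 and 3 and 0.831 and 1.02 in WT replicates 2 and 3. The lowest members are therefore measured least precisely in KO replicates 1 and 3.

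The tissue showed the fast profile of its label. Of the summed FPKM of the adult myosin heavy chain genes Myh7, Myh2, Myh1 and Myh4, the fast IIb gene Myh4 held 81.8% ± 7.27 in KO libraries and 80.6% ± 0.717 in WT libraries (SD, n = 3 each). The IIx gene Myh1 held 16.3% ± 6.59 in KO and 17.3% ± 0.605 in WT. In bulk tissue, more fibres of a type and more RNA per fibre cannot be told apart. The 10 slow and IIa genes together made up 0.292%, 0.304% and 0.366% of all FPKM in the KO libraries and 0.288%, 0.248% and 0.186% in the WT libraries. Every KO library lay above every WT library in this share, the lowest KO and the highest WT library by a narrow margin (exact permutation test, two-sided, p = 0.1, the smallest that 3 against 3 allows). The mean share was 0.0800 percentage points higher in KO, and 0.0527 points higher without WT replicate 3. The sum of the members' log2(FPKM + 1), in which abundant genes weigh less, overlapped between the groups (exact permutation test, p = 0.5). Mybpc1 alone made up 70.6% ± 3.80 of the members' FPKM in KO and 63.9% ± 8.50 in WT, and without it the members' share of all FPKM was 0.0953% ± 0.0236 in KO and 0.0880% ± 0.0343 in WT, with overlapping libraries (exact permutation test, p = 0.8).

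Of the 10 members, 9 were tested in the authors' deposited table. Mybpc1 and Myl3 rose, 7 were not called and none fell (nor did any member lower in KO have an unadjusted p under 0.05, in that table or by limma). Myh7 lay too low to be tested. Of all 9204 tested genes 10.8% were called, 5.90% as risen and 4.94% as fallen. By limma no member was called, against 4.72% of all tested genes (3.04% higher and 1.67% lower). Before adjustment, 4 of the 9 tested members had a p under 0.05 in the authors' deposited table (Mybpc1, Myl3, Tnni1 and Tnnc1), against 22.3% of all tested genes, and 2 by limma (Mybpc1 and Tnni1), against 21.5%, a share close to that of the members. Mybpc1 and Tnni1 also had every KO library above every WT library, and no tested member had every KO library below. Over all tested genes the libraries of the groups did not overlap for 28.0% (15.6% with KO above and 12.4% with KO below), a share close to that of the members. The median log2 fold change of the 9 tested members was 0.31, against 0.01 for all tested genes. A higher mean in KO was seen in 7 of the 9, against 51.0% of all tested genes. The median is the value of Myoz2, which was -0.07 without KO replicate 3. Of the 7, Myoz2, Myl2 and Tnnt1 had changes smaller than their SE, as did Myh2 among those lower in KO. The members are not replicates and were chosen with earlier results known, so these values describe the list only.

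**Figure D1:**
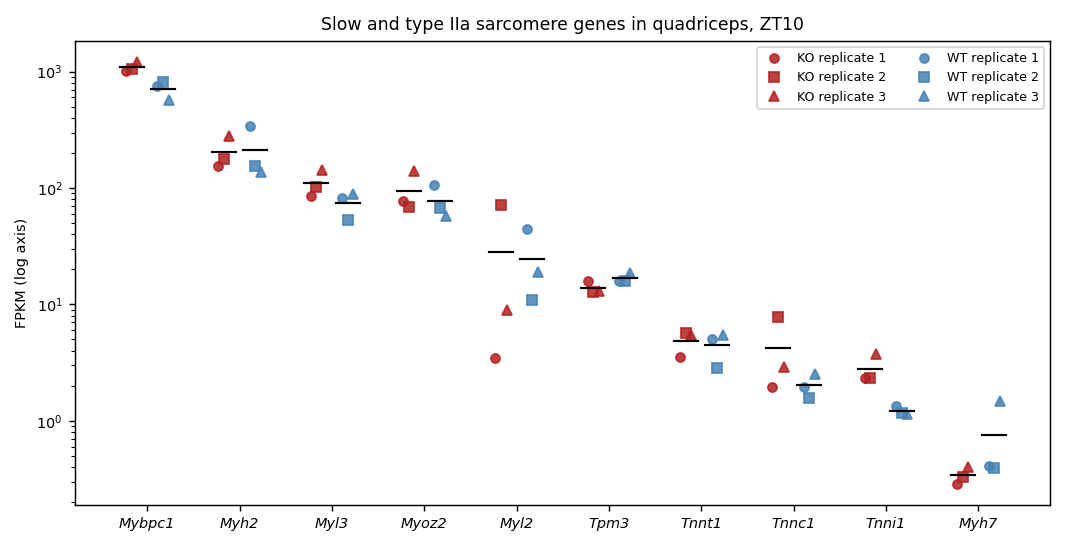
FPKM of the 10 slow and type IIa sarcomere genes on a log axis, in the order of their KO mean. Red symbols are the 3 KO libraries, blue symbols the 3 WT libraries, and black bars the group means; Mybpc1 and Tnni1 are the genes whose KO libraries all lie above the WT libraries, and Myl2 has the widest spread within a group.

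The letters upstream of 3 members are shown because they span the range of the results. Mybpc1 and Myl3 are the called members, and Myh7, the defining slow myosin, is nearly absent. The Myl3 and Myh7 runs are the 250 bases before the RefSeq gene start on GRCm38.p6 (a newer build than the mm9 used for expression), read 5′ to 3′ on the gene's strand. The RefSeq window of Mybpc1 reaches 77 bases into the annotated gene, and the 173 bases that lie before the gene are shown. Capitals mark E-boxes (CANNTG, bound by myogenic factors), MCAT elements (CATTCC on either strand, bound by TEAD factors) and CArG boxes (bound by SRF).
Mybpc1, chr10:88605230-88605402, minus strand: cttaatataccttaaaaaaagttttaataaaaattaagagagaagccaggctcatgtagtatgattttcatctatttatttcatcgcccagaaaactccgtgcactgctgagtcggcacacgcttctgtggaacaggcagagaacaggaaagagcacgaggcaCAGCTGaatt
Myl3, chr9:110763428-110763677, plus strand: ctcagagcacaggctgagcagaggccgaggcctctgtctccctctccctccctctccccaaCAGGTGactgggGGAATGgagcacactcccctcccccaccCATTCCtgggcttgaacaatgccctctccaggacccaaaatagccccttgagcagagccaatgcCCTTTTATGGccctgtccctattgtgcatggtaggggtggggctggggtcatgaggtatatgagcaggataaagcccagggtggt
Myh7, chr14:54994627-54994876, minus strand: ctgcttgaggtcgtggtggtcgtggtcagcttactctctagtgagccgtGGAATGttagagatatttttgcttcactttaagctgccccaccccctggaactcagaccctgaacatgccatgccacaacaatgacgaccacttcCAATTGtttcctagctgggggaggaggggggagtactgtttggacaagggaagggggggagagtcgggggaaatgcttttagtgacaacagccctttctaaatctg
The Myl3 window holds 1 E-box, 2 MCAT elements and 1 CArG box. The Mybpc1 stretch shown holds 1 E-box and none of the other elements, and the Myh7 window 1 E-box and 1 MCAT element. Over the 14 whole windows of 250 bases that RefSeq gives for the 10 members, E-boxes were in 13, MCAT elements in 3 (of Myh7, Myl3 and Tnnc1), and a CArG box (Myl3) and a MEF2 box (Myoz2) in 1 each. Of all 32851 mouse windows of this length, 66.2% held an E-box, 12.6% an MCAT element, 1.47% a CArG box and 2.92% a MEF2 box. These matches describe the letters only.

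Among the thick-filament genes, Mybpc1, which encodes the slow form of the protein that stripes the thick filament and tunes cross-bridges, was the most abundant member. It was at 1011, 1049 and 1215 FPKM in KO libraries and at 750, 818 and 570 FPKM in WT libraries. The lowest KO library lay above the highest WT library. Mybpc1 rose 1.53-fold (log2 fold change 0.62 ± 0.17, SE), with q = 0.00927 in the authors' deposited table and an adjusted p of 0.0704 by limma. When each library was left out in turn, the log2 fold change stayed between 0.48 and 0.73.

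Myl3, the essential light chain of slow fibres and of the heart ventricle, was at 85.1, 102 and 143 FPKM in KO libraries and at 81.5, 53.4 and 89.0 FPKM in WT libraries. KO replicate 1 lay below WT replicate 3, so the groups overlapped. Myl3 rose 1.47-fold (log2 fold change 0.56 ± 0.31), with q = 0.00927 in the authors' deposited table and an adjusted p of 0.246 by limma. The log2 fold change of Myl3 was 0.32 without KO replicate 3 and 0.37 without WT replicate 2.

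Myl2, the regulatory light chain of the same fibres, was at 3.45, 72.0 and 9.00 FPKM in KO libraries and at 44.4, 10.9 and 18.9 FPKM in WT libraries. KO replicate 2 was the highest and KO replicate 1 the lowest of all 6 libraries, a 20.9-fold range within KO, against a 4.05-fold range within WT. The mean log2 fold change of 0.19 ± 1.27 carried no call (q = 0.746 in the authors' deposited table). It was -1.99 without KO replicate 2, and limma, which works on the log scale, gave -0.58 with an adjusted p of 0.781.

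The 2 myosin heavy chains of the list differed greatly in level. Myh2, the IIa myosin, was at 154, 176 and 282 FPKM in KO libraries and at 339, 155 and 138 FPKM in WT libraries. One library in each group stood above its companions, KO replicate 3 and WT replicate 1, and the groups overlapped fully. The log2 fold change of Myh2 was -0.05 ± 0.52 (q = 0.921 in the authors' deposited table, adjusted p of 0.976 by limma), and it was 0.48 without WT replicate 1.

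Myh7, the type I myosin, was at 0.288, 0.327 and 0.404 FPKM in KO libraries and at 0.408, 0.393 and 1.47 FPKM in WT libraries. Of the 6 libraries WT replicate 3 stood apart, and KO replicate 3 lay just above WT replicate 2. Myh7 was not tested in the authors' deposited table. Its log2 fold change was -1.15 ± 0.69, and -0.24 without WT replicate 3. In limma without a filter on low genes its change was -0.34 on the log2(FPKM + 1) scale (adjusted p of 0.564). The heart gene Myh6, a close copy of Myh7 with which it can share reads, was at 0.244 to 0.526 FPKM in KO and at 0.402 to 0.494 FPKM in WT. The sources used here do not say how reads shared by near-identical genes were assigned, which also bears on Myh1, Myh2 and Myh4 and on Tpm3.

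Among the thin-filament genes the slow troponins were low. Tnni1, the slow inhibitory subunit, was at 2.34, 2.32 and 3.78 FPKM in KO libraries and at 1.35, 1.16 and 1.13 FPKM in WT libraries. Every KO library lay above every WT library, and the lowest KO and the highest WT library were about 1 FPKM apart. The fold of Tnni1 was 2.32 (log2 fold change 1.21 ± 0.26), the largest of the members, yet it was not called (q = 0.0820 in the authors' deposited table, adjusted p of 0.0649 by limma).

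Tnnc1, the calcium-binding subunit that slow fibres share with the heart, was at 1.97, 7.81 and 2.89 FPKM in KO libraries and at 1.95, 1.56 and 2.55 FPKM in WT libraries. KO replicate 2, the library highest in Myl2, was also far the highest in Tnnc1, and KO replicate 1 lay within the WT range. Its log2 fold change of 1.06 ± 0.65 was not called (q = 0.164 in the authors' deposited table, adjusted p of 0.379 by limma), and it was 0.27 without KO replicate 2.

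Tnnt1, the slow tropomyosin-binding subunit, was at 3.55, 5.63 and 5.44 FPKM in KO libraries and at 5.09, 2.82 and 5.43 FPKM in WT libraries. The groups covered nearly the same range. Its log2 fold change was 0.13 ± 0.33 (q = 0.869 in the authors' deposited table, adjusted p of 0.810 by limma).

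Tpm3 encodes the slow tropomyosin and, from the same gene, tropomyosins of non-muscle cells, and a value per gene does not separate them. It was at 15.9, 12.9 and 13.1 FPKM in KO libraries and at 15.8, 15.8 and 18.7 FPKM in WT libraries. KO replicate 1 lay among the WT libraries and the other KO libraries below them. Its log2 fold change was -0.26 ± 0.13 (q = 0.469 in the authors' deposited table, adjusted p of 0.298 by limma).

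Myoz2, a calsarcin that ties calcineurin to the Z-disc of slow fibres, was at 77.9, 68.7 and 139 FPKM in KO libraries and at 106, 66.8 and 57.2 FPKM in WT libraries. KO replicate 3 and WT replicate 1 were the high libraries, the same ones as for Myh2. Its log2 fold change was 0.31 ± 0.44 (q = 0.231 in the authors' deposited table, adjusted p of 0.642 by limma), and it was -0.07 without KO replicate 3.

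**Figure D2:**
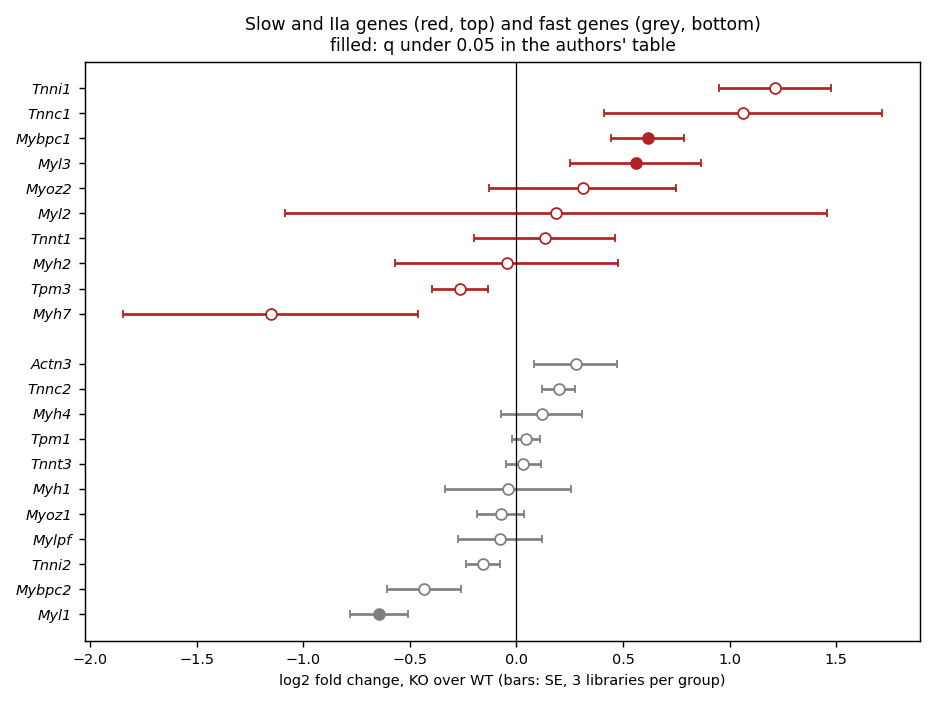
Log2 fold change of mean FPKM, KO over WT, for the 10 slow and type IIa genes (red, upper block) and 11 fast sarcomere genes (grey, lower block), with bars of 1 SE from 3 libraries per group. Filled points had a q-value under 0.05 in the authors' deposited table: Mybpc1 and Myl3 lie above 0 and the fast light chain gene Myl1 lies below 0.

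Ordered by level in FPKM, the members ran Mybpc1, Myh2, Myl3, Myoz2, Myl2, Tpm3, Tnnt1, Tnnc1, Tnni1 and Myh7 in KO. The WT order was the same except that Myoz2 came before Myl3. Neighbours whose libraries did not overlap in either group were Mybpc1 over Myh2, Myh2 over the next gene, and Tpm3 over Tnnt1. Myl3 and Myoz2 overlapped in both groups, as did Myl2 and Tpm3. Myl2 lay apart from its upper neighbour Myl3 in WT and overlapped its upper neighbour Myoz2 in KO, where Tnnt1, Tnnc1 and Tnni1 also ran into one another. Tnni1 lay clear of Myh7 in KO and overlapped it in WT. By mean FPKM Mybpc1 was 58th of the 24354 genes in KO and 79th in WT, and Myh7 was 12377th in KO and 11143rd in WT.

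Each slow or IIa gene was next set against its fast counterparts, as a share of the summed FPKM of the isoform family. Of 10 such families, the share in every KO library exceeded that in every WT library in 3, those of Mybpc1, Myl3 and Tnni1, and the other 7 overlapped. Taken as single genes, 15.6% of all tested genes had every KO library above every WT library, Mybpc1 and Tnni1 among them. The matching rate for shares of other gene families was not computed, so the count is a description only. Mybpc1 held 59.2%, 51.0% and 61.6% of the sum with Mybpc2, its fast counterpart, in KO libraries and 40.9%, 43.5% and 32.5% in WT libraries. Mybpc1 was thus the larger of the pair in each KO library and the smaller in each WT library. Its level was high although Myh7 and Myh2 were small parts of the myosin sum. Which fibre types its RNA came from was not measured, so its share is not a measure of slow fibres. Mybpc2 was at 821 ± 164 FPKM in KO and 1110 ± 62.9 FPKM in WT, and its log2 fold change of -0.44 ± 0.17 was not called (q = 0.108 in the authors' deposited table, adjusted p of 0.144 by limma).

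Myl3 held 1.10%, 1.08% and 1.81% of the sum with Myl1 in KO libraries and 0.560%, 0.416% and 0.771% in WT libraries. The fast essential light chain gene Myl1 fell 1.56-fold, to 8242 ± 950 FPKM in KO against 12893 ± 1509 FPKM in WT (q = 0.0144 in the authors' deposited table, adjusted p of 0.0564 by limma), so the share of Myl3 moved through both genes. Tnni1 held 0.0278%, 0.0230% and 0.0395% of the sum with Tnni2 in KO libraries and 0.0133%, 0.0112% and 0.0105% in WT libraries. For these 3 families the exact permutation test gave p = 0.1, the smallest that 3 against 3 allows, and 0.333 after Benjamini-Hochberg adjustment over the 10 families.

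The other shares did not separate the groups. Myh2 held 1.63%, 1.39% and 2.71% of the myosin heavy chain sum in KO libraries and 3.39%, 1.49% and 1.35% in WT libraries. Myh7 held 0.00257% to 0.00388% of it in KO and 0.00378% to 0.0143% in WT. Myoz2 held 4.19% to 9.87% of its sum with Myoz1 in KO and 3.93% to 6.70% in WT, and Myl2 0.0358% to 0.594% of its sum with Mylpf in KO and 0.0984% to 0.313% in WT. Tnnt1 (0.0282% ± 0.00581 in KO, 0.0265% ± 0.00876 in WT), Tnnc1 (0.0341% ± 0.0230 and 0.0194% ± 0.00467) and Tpm3 (0.104% ± 0.0194 and 0.128% ± 0.0108) stayed far below their fast partners in every library. The exact permutation p of these 7 families ranged from 0.2 to 1.

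**Figure D3:**
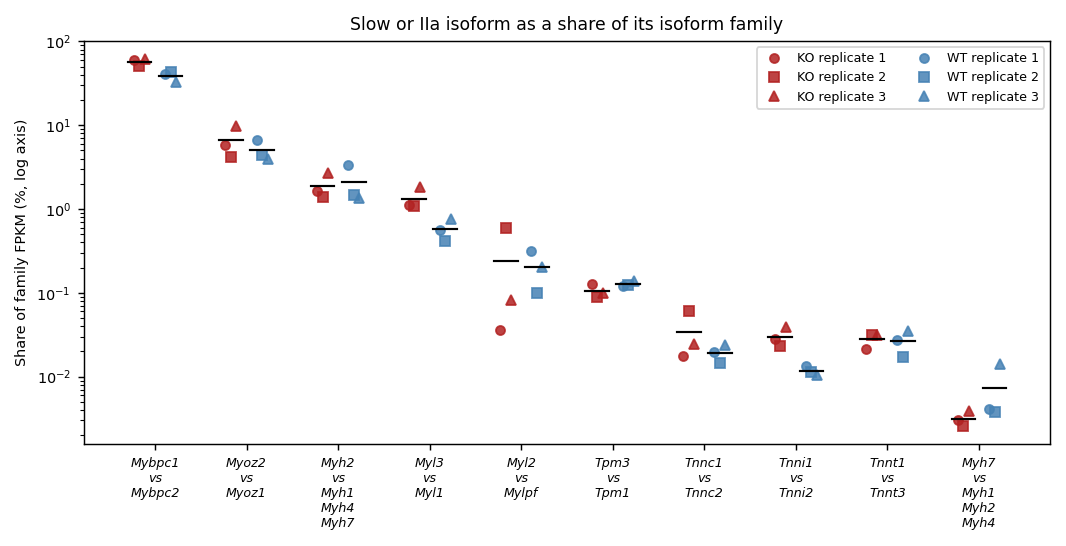
Share of each slow or IIa gene in the summed FPKM of its isoform family (percent, log axis), the partners being named under it. Red symbols are KO libraries, blue symbols WT libraries and black bars group means; KO lies wholly above WT for Mybpc1, Myl3 and Tnni1, and Mybpc1 is the only family in which the share passes from under to over the fast partner.

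The members did not vary as a single block between libraries of the same group. On the log2(FPKM + 1) scale, KO replicate 3 was the highest KO library for 6 of the 10 members and KO replicate 1 the lowest for 7, while in WT replicate 2 was the lowest for 5. Myh2 and Myoz2 deviated upward together in KO replicate 3 (by 0.51 and 0.61) and in WT replicate 1 (by 0.81 and 0.52). Myl2 and Tnnc1 instead deviated upward in KO replicate 2 (by 2.30 and 0.92) and downward in KO replicate 1 (by 1.74 and 0.65). Among the fast myosins, Myh1 made up 23.2% of the myosin sum in KO replicate 3 and 10.1% in KO replicate 2, and Myh4 made up 74.1% and 88.5% of it in those libraries.

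**Figure D4:**
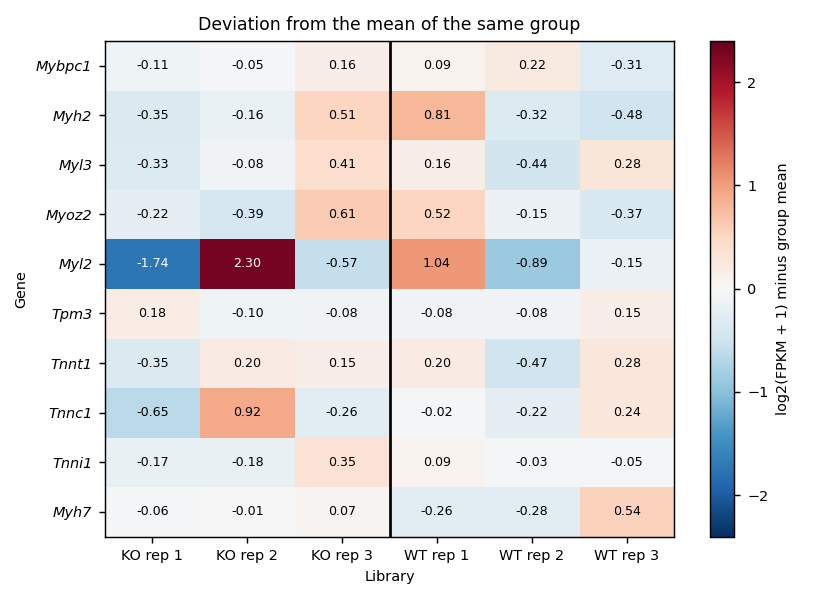
Deviation of log2(FPKM + 1) from the mean of the same group, for each member (rows, in the order of the KO mean) and library (columns, KO left of the line, WT right). Myl2 deviates most, by 2.30 in KO replicate 2 and -1.74 in KO replicate 1, and Myh2 and Myoz2 are high in KO replicate 3 and WT replicate 1.

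Markers of other tissues were checked beside these values. Of 6 heart chamber genes, Myl7 and Nppb were at 0 in every library, and the summed level of all 6 was 1.62 to 2.02 FPKM in KO and 1.66 to 2.04 FPKM in WT. All 8 fibre markers were present in every library, with sums of 52086 to 64095 FPKM in KO and 53228 to 61983 FPKM in WT. One of these 8, the intermediate filament gene Des, rose 1.93-fold (q = 0.00119 in the authors' deposited table, adjusted p of 0.0271 by limma). Of 5 fibroblast and matrix markers, all lower in mean in KO, Col1a1 and Col1a2 fell in the authors' deposited table (q = 0.00119 each, adjusted p of 0.297 and 0.185 by limma), and the 5 summed to 271 to 415 FPKM in KO and 392 to 569 FPKM in WT. Without KO replicate 3 the log2 fold changes were -0.49 for Col1a1, against -0.82 with it, and -0.38 for Col1a2, against -0.63 with it. That of Col1a1 was -1.28 without KO replicate 2 and -0.47 without WT replicate 3. Of 2 tested satellite cell markers Cdh15 fell (q = 0.00536 in the authors' deposited table, adjusted p of 0.142 by limma), and the 5 listed ones summed to 4.14 to 5.64 FPKM in KO and 8.43 to 9.42 FPKM in WT. Of the tested adipocyte (3 of 5), endothelial (5 of 5), macrophage (4 of 5) and Schwann cell (2 of 5) markers none was called there or by limma. Before adjustment, p in the authors' deposited table was under 0.05 for 1 adipocyte and 1 macrophage marker, and for none by limma. The part of these cells in the members' values was not tested.

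Other genes that mark slow or oxidative fibres, or serve the Z-disc and calcium handling, changed in both directions. Of 16 such genes 15 were tested, of which 3 rose, 3 fell and 9 were not called by the q-values of the authors' deposited table, with a median log2 fold change of 0.17. Limma called 1 of them higher and 1 lower. For comparison, 10.8% of all tested genes were called by the q-values (5.90% higher and 4.94% lower) and 4.72% by limma. The list was chosen with earlier results of these data known, so its share of called genes carries no result about such genes. Hspb7, a small heat shock protein of the sarcomere, was at 225, 139 and 333 FPKM in KO libraries and at 52.6, 74.5 and 86.1 FPKM in WT libraries, a 3.27-fold rise (q = 0.00119 in the authors' deposited table, adjusted p of 0.0331 by limma). Csrp3, the stretch-sensing muscle LIM protein, rose 3.24-fold in that table, but KO replicate 2 at 78.6 FPKM lay within WT values, with the other KO libraries at 377 and 472 FPKM against 76.3 to 106 FPKM in WT (adjusted p of 0.256 by limma). Actn2, the main Z-disc actinin of slow fibres, was at 251, 186 and 388 FPKM in KO libraries and at 182, 196 and 203 FPKM in WT libraries. It rose 1.42-fold in the authors' deposited table (q = 0.0230, adjusted p of 0.351 by limma), with a log2 fold change of 0.50, and of 0.17 without KO replicate 3.

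The fallen genes of this list included a calcium store protein of slow fibres. Casq2, the slow and cardiac calsequestrin, was at 13.5, 15.9 and 20.0 FPKM in KO libraries and at 34.7, 29.4 and 20.8 FPKM in WT libraries, with no overlap, and fell 1.72-fold (q = 0.00119 in the authors' deposited table, adjusted p of 0.0975 by limma). Calm3, a calmodulin gene, fell 2.31-fold to 49.8 ± 4.25 FPKM in KO against 115 ± 18.6 FPKM in WT (q = 0.00119 in the authors' deposited table, adjusted p of 0.0107 by limma). Smtnl2, a smoothelin-like gene, fell 1.60-fold to 71.9 ± 3.13 FPKM in KO against 115 ± 40.3 FPKM in WT (q = 0.00119 in the authors' deposited table, adjusted p of 0.158 by limma). Its log2 fold change was -0.68, and -0.36 without WT replicate 3. Myoglobin (Mb), the oxygen store of oxidative fibres, was at 3640, 4040 and 6191 FPKM in KO libraries and at 3032, 3369 and 3397 FPKM in WT libraries, and Atp2a2, the slow calcium pump, averaged 6.96 ± 1.51 FPKM in KO and 8.08 ± 1.67 FPKM in WT. Neither was called (q = 0.0554 and 0.533 in the authors' deposited table).

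Regulators of the slow or oxidative programme also changed in both directions. Of 28 listed genes 22 were tested, of which 2 rose, 1 fell and 19 were not called by the q-values of the authors' deposited table, with a median log2 fold change of 0.07. Limma called 2 of them higher and 1 lower. Of all tested genes 10.8% were called by the q-values (5.90% higher and 4.94% lower) and 4.72% by limma. This list too was chosen with earlier results known, so its share of called genes carries no result about regulators. Esrrg, an orphan nuclear receptor that promotes oxidative fibres in mice, was at 13.9, 12.0 and 16.7 FPKM in KO libraries and at 6.70, 6.85 and 5.87 FPKM in WT libraries, a 2.19-fold rise (q = 0.00119 in the authors' deposited table, adjusted p of 0.0154 by limma). Fnip1, a folliculin partner whose loss in mice shifts muscle to oxidative fibres, rose 1.73-fold to 87.6 ± 11.9 FPKM in KO against 50.8 ± 4.77 FPKM in WT (q = 0.00119 in the authors' deposited table, adjusted p of 0.0228 by limma). Eya1, a transcriptional coactivator that drives fast fibre genes, fell. It was at 3.99, 3.61 and 3.49 FPKM in KO libraries and at 7.15, 8.45 and 10.1 FPKM in WT libraries (2.31-fold, q = 0.00119 in the authors' deposited table, adjusted p of 0.0154 by limma).

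**Figure D5:**
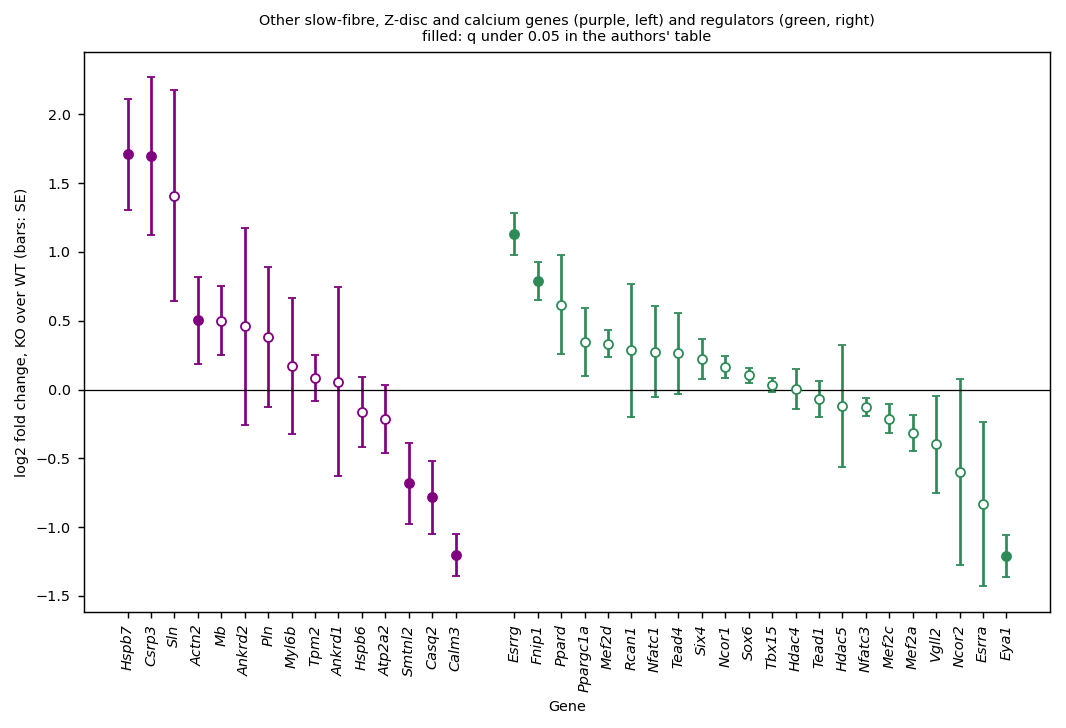
Log2 fold change of mean FPKM, KO over WT, with bars of 1 SE (3 libraries per group), for 15 tested genes of slow fibres, Z-disc and calcium handling (purple, left) and 22 tested regulators of the slow or oxidative programme (green, right). Filled points had a q-value under 0.05 in the authors' deposited table: Hspb7, Csrp3, Actn2, Esrrg and Fnip1 lie above 0, and Smtnl2, Casq2, Calm3 and Eya1 lie below 0.

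The fast sarcomere genes were taken as a comparison. Of 11 fast genes, all tested, none rose and 1 fell (Myl1) in the authors' deposited table, and limma called none. Of all tested genes 10.8% were called in that table and 4.72% by limma. Before adjustment, 2 of the 11 (Myl1 and Mybpc2) had a p under 0.05 in both tests, a share no larger than that of all tested genes given above. The median log2 fold change of the 11 fast genes was -0.04, against 0.31 for the tested slow and IIa members. The latter is the value of Myoz2, with an SE of 0.44, and the difference of the medians was not tested. As a share of all FPKM the fast genes made up 17.8% ± 1.23 in KO and 19.1% ± 1.22 in WT (exact permutation test, p = 0.2). Of the sum of both lists, the slow and IIa genes were 1.69%, 1.56% and 2.09% in KO libraries and 1.41%, 1.26% and 1.04% in WT libraries, with no overlap (exact permutation test, p = 0.1, the smallest possible here). Without Mybpc1 they were 0.435%, 0.472% and 0.700% in KO libraries and 0.630%, 0.347% and 0.385% in WT libraries, which overlapped (exact permutation test, p = 0.5). Of the developmental and cardiac sarcomere genes, Actc1, cardiac actin, was at 13.5, 20.4 and 8.71 FPKM in KO libraries and at 292, 68.3 and 32.6 FPKM in WT libraries (log2 fold change -3.20, and -1.83 without WT replicate 1; q = 0.00119 in the authors' deposited table, adjusted p of 0.0894 by limma).

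Genes whose deviations within the groups were most like the mean deviation of the members were sought. The 932 genes searched were tested non-members of at least 5 FPKM whose deviations had an SD of at least 0.3. The 8 closest over the 6 libraries were Dtymk, Taf11, Ier3, Dusp1, Slc43a3, Slc25a25, Tmem179b and Vaultrc5, with Pearson r from 0.908 to 0.967. None of them is a sarcomere gene, but the members were left out and genes that varied less could not enter, so this absence carries no result. Dusp1, a phosphatase of MAP kinases, was at 28.8, 60.7 and 86.2 FPKM in KO libraries. It was at 32.4, 20.9 and 33.0 FPKM in WT libraries (q = 0.00119 in the authors' deposited table). Ier3 averaged 11.4 FPKM in KO and 4.84 FPKM in WT (q = 0.00213 in that table), and the others of the 8 were not called. These r are the highest of the 932 genes searched, so their size carries no result. With so few libraries such likeness describes these samples only.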

How the data were processed

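RNA-seq of 3 KO and 3 WT quadriceps libraries was used as deposited: FPKM per gene and library which, per the submitters' processing notes, the authors computed with Cuffdiff after TopHat2 (mm9), and the authors' deposited p-value and q-value per gene. The sources used here give no versions, annotation, strandedness or library scaling. Genes with a deposited p-value under 1 (9204) were taken as tested. Fold changes are ratios of mean FPKM, with delta-method SE. Limma 3.58.1 (R 4.3.3, mean-variance trend, two-sided, Benjamini-Hochberg adjustment over all tested genes) was fitted on log2(FPKM + 1) and tested on simulated data. The outcome of that test is not given here, so a missing limma call does not show that a gene was unchanged. Log2(FPKM + 1) understates changes of low genes. Alternatives were a pseudocount of 0.1, other filters, median centring, a replicate block, a q threshold of 0.1, log2 forms of the shares and leaving out each library. Depth per library is known only as a ratio. HDAC3 peaks were not used, since no mm9 annotation was at hand. Promoters came from RefSeq (GRCm38.p6).

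Named genes are the members, their fast partners, called genes of the listed groups and the 8 genes most like the members (SD of deviations of at least 0.3, mean of at least 5 FPKM). One listed regulator is not reported here. The members and lists were chosen with earlier results of these data known.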

Additional observations from a re-analysis of the deposited data

How the results depend on the processing

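By limma 0 members were called higher, against 2 by the authors' q-value. The number was 0 under each limma setting: a pseudocount of 0.1, a mean of at least 1 FPKM, no filter on low values, centring, the replicate block, and 0 to 0 when single libraries were left out. At a q threshold of 0.1 it was 3, with Tnni1 added. No member was called lower under any of these. Limma itself called 434 genes, 247 with no filter, 52 with the replicate block, and 20 (without WT replicate 2) to 292 with a library left out. Whether the replicate numbers pair the libraries is not known, since the labels do not say. Deviations of same-numbered KO and WT libraries correlated at -0.00285, 0.0473 and 0.0487, which with so few libraries cannot settle it. Only KO replicate 2 and WT replicate 3 correlated best with their own number. The block gave Mybpc1 an adjusted p of 0.144 and Myl3 one of 0.180 by limma.

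Signs turned for Myh2, Myl2, Tnnt1 and Myoz2, each with a log2 fold change smaller than its SE. The log2 fold change of Myoz2, 0.31, is also the median of the tested members. Myh2 was at -0.05 on the log2 scale, and at 0.025 under limma, with either filter and with the replicate block, at 0.026 with a pseudocount of 0.1, at 0.020 after centring, and at -0.35 to 0.48 with 1 library left out. Myl2 was at 0.19, and at -0.58 under limma, with either filter, after centring and with the replicate block, at -0.67 with a pseudocount of 0.1, and at -1.99 to 0.91 with 1 library left out. Tnnt1 ranged from -0.11 to 0.32 and Myoz2 from -0.066 to 0.62. The shares in their families turned too, with KO minus WT between -0.567 and 0.488 percentage points for Myh2, -0.146 and 0.133 for Myl2, -0.00292 and 0.00580 for Tnnt1 and -0.0169 and 2.82 for Myoz2. As a log2 ratio with 1 FPKM added, Myl2 was at -0.51. The cause was not tested. Mybpc1, Myl3, Tnni1, Tnnc1, Tpm3 and Myh7 kept their direction in each setting that gave a value. Relative depth limits the troponins and Myh7, which lay under 10 FPKM.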
